A study of Mus musculus with 11 samples.

Results

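A segment of mouse chromosome 4 that holds repeated copies of the genes Il11ra, Ccl19, Ccl21 and Ccl27 was described in RNA-Seq counts of purified granule cell precursors (GCps), the dividing cells of the early postnatal cerebellum that give rise to granule neurons. The members are all annotated genes that start between positions 41200000 and 43300000 of chromosome 4 on GRCm38 (mm10). The annotation placed 87 genes there, and 84 of them had a row among the 38924 genes of the count files. The window was selected on the difference between cko and control libraries that is described here. In that difference Gm13301 and Gm17167 were nearly lost in the cko. All cko and control values of the members are therefore a description. The calls, standard errors and intervals given for members come from the same counts and are no independent test of a difference. At its edges, the first member, Gm22888, had no read and the last, Atp8b5, had 28 and 23 reads in control and 26 and 32 in cko. The nearest genes outside, Ubap2 and Rusc2, had log2 fold changes of 0.05 and -0.07.

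GCps came from mouse pups at postnatal day 7 on a C57Bl/6J background, with 2 RNA libraries per genotype. Control GCps were labelled wild type and Chd7flox/+ (the extraction notes name 2 floxed alleles without Cre), and cko GCps were Math1cre;Chd7flox/flox, in which Cre removes the chromatin remodeler CHD7 from the granule cell lineage. The Math1-Cre transgene spares the most posterior lobules, and lobules IX and X were dissected away. Cerebella were pooled by genotype before Percoll purification, so a library may hold several animals. The mouse lines had been backcrossed to C57BL/6J for at least 3 generations.

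The libraries held 61836588 to 77346481 counted reads. Chd7 itself had 322 and 319 CPM (reads scaled to a library size of 1e6 by TMM) in control and 392 and 355 CPM in cko, and the count over the whole gene does not check the deletion. It lies on the same chromosome, 32.3 Mb before the window. Chromosome 4 sequence linked to Chd7 may differ with genotype, and the part of this in the members' counts was not tested. Markers of granule cell precursors summed to 4432 to 4471 CPM in control and 3598 to 4232 CPM in cko. Barhl1, Mycn and Gli1 were higher in both cko libraries and Zic1, Pax6 and Neurod1 lower, against 22.7% and 21.2% of all genes tested. Neurod1 fell most, from 1051 and 999 CPM in control to 475 and 780 CPM in cko. Of these 8 markers 0 were called. Skeletal muscle markers summed to 3.51 to 5.04 CPM in control and 21.4 to 42.7 CPM in cko. Of the 5, 4 were called higher, against 0.809% of all genes tested. Endothelial markers summed to 206 to 241 CPM in control and 322 to 328 CPM in cko. All 6 were higher in both cko libraries, as were 22.7% of all genes tested, and 0 were called. Astroglial markers summed to 571 to 656 CPM in control and 485 to 524 CPM in cko. Of the 4, 3 were lower in both cko libraries, as were 21.2% of all genes tested, and 0 were called. Library cko 1 was of female cells (Xist 793 CPM, no read of the Y-linked gene Ddx3y), and the other 3 libraries were of male cells (Xist at most 0.548 CPM, Ddx3y 63.7 to 69.1 CPM), so the cko libraries came from different animals and sex differed between them. The part of these differences in the members' counts was not tested, and values without cko 1 are given for the members described in most detail.

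IL-11 receptor alpha, the product of Il11ra1, binds interleukin 11 and signals through the shared receptor subunit gp130 (Il6st) to JAK kinases and STAT3. CCL19 and CCL21 are chemokines that draw lymphocytes and dendritic cells to lymphoid tissue through the receptor CCR7, and CCL27 is a chemokine best known from skin that acts through CCR10. In the mouse these genes stand in tandem with near-identical copies, so that a short read from one copy can fit several places in the genome.

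How alike the copies are is visible in their sequences. Il11ra1, its copy Gm13305 and Il11ra2 are shown over a coding stretch of 100 bases, read in the sense direction from GRCm38.p6, because the 3 genes differed in their counts. Capitals mark the bases at which the 3 sequences are not all alike.
Il11ra1, chr4:41767946-41768045, plus strand: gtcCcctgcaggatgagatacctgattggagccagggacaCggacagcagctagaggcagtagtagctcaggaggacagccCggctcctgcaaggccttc
Gm13305, chr4:42160279-42160378, minus strand: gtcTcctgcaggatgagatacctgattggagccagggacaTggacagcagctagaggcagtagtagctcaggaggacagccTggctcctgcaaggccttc
Il11ra2, chr4:42657438-42657537, minus strand: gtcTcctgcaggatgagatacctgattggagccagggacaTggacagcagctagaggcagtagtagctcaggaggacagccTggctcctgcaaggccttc
Counted from 1 at the left end, Gm13305 and Il11ra2 share the substitutions C4T, C41T and C82T relative to Il11ra1. Over the 1225 coding bases that could be aligned without gaps in 10 blocks, each of them differed from Il11ra1 at 13 bases (98.9% identity), and Gm13305 and Il11ra2 differed from each other at 0 bases. The stretch of Il11ra1 occurs 1 time on chromosome 4, and that of Gm13305 and Il11ra2 occurs 2 times.

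Ccl21a and Ccl21b are shown over 100 coding bases, with the single difference (T17A) in capitals.
Ccl21a, chr4:42773664-42773763, minus strand: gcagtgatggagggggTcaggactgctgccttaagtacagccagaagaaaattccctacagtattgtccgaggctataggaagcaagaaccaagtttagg
Ccl21b, chr4:42255922-42256021, plus strand: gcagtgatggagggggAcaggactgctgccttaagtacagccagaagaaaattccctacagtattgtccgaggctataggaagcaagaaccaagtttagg
They differed at 2 of 371 aligned coding bases, and the stretch of Ccl21b occurs 4 times on chromosome 4.

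Gm13301, the member with the largest difference, is shown over 60 exonic bases with 2 of its copies. Capitals mark the bases that vary among the 3.
Gm13301, chr4:42218837-42218896, plus strand: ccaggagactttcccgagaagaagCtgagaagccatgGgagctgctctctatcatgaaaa
Gm12394, chr4:42794775-42794834, minus strand: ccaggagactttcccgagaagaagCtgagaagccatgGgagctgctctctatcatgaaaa
Gm2163, chr4:42583036-42583095, plus strand: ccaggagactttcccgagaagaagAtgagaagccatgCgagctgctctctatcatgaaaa
Gm13301 and Gm12394 are alike here, and Gm2163 carries C25A and G38C. The Gm13301 version occurs 6 times on chromosome 4 and the Gm2163 version 5 times.

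Every exonic stretch of 50 bases (50-mer) of the members was counted in the whole assembly, on both strands. The members fell into 2 classes of equal size by this measure, which uses only the reference sequence: in 42 members under 50% of the exonic 50-mers occurred once, and in the other 42 members, called mostly unique here, 50% or more did. The threshold was chosen after the counts had been seen. The members nearest to it were Il11ra1 (52.7% unique) and Vcp (52.5%) above and Ccl27a (30.1%) below. The assembly includes contigs without a position on a chromosome. On the chromosomes alone, Gm12394 was 42.1% unique against 3.11% in the assembly, Ccl19 29.3% against 0% and Ccl21a 23.1% against 0%. The classes were the same on either basis. The sources used here do not say whether the authors' mm10 reference held these contigs. The 42 low-uniqueness members, called repeat members from here on, formed 1 unbroken block of 1.09 Mb from Ccl27a to Fam205a1, with 0 members of the other class inside it, 27 mostly unique members before it and 15 after it. Il11ra1 counts among the mostly unique members although it has near-copies. In Gm13301, Gm17167, Gm13305, Gm13306, Gm2163, Il11ra2, Ccl21b and Ccl27b, 0% of the 50-mers and 0% of the 100-mers were unique. Their counts, and those of the other repeat members, therefore depend on whether reads with more than 1 match were placed or left out. Reads of alignment quality under 3 were left out, and the sources used here give no more on this. The paper describes the reads as mate pairs, and how often a whole pair fits only 1 place was not counted.

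The block is built from recurring gene sets. Il11ra1 ends beside Ccl27a at the proximal end, Gm13305 lies beside the Ccl27b copy Gm13306, and Il11ra2 lies beside Ccl27b, each receptor gene on the strand opposite to its chemokine neighbour. By alignment of the longest transcripts (at least 90% identity over at least 50% of the length, linked through shared copies), the members made up families of 3 Il11ra, 5 Ccl21, 5 Ccl19, 4 Ccl27a, 2 Ccl27b and 4 Fam205a copies, and a family of 18 copies that carry only Gm names, among them Gm17167 and Gm13301.

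Of the 84 members, 59 had at least 1 read and 25 had none in the 4 libraries. Of the 59, 39 passed edgeR's filter on low counts and were among the 16436 genes tested, and a member could pass it through the group in which it was high. By edgeR's quasi-likelihood test with a Benjamini-Hochberg threshold of 0.05 over all 16436 genes, 3 members were called lower in the cko (Gm13301, Gm17167 and Gm13305) and 1 was called higher (Il11ra1), and 35 did not pass. Over all genes 1.58% were called, 0.773% lower and 0.809% higher. Because the window was chosen from this contrast, nothing is read from the difference between these shares. The median log2 fold change of the 39 was -0.07, against -0.00056 over all genes. Both cko libraries were below both control libraries in 15 of the 39 and above them in 7 (21.2% and 22.7% of all genes tested), and the groups overlapped in 17.

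**Figure D1:**
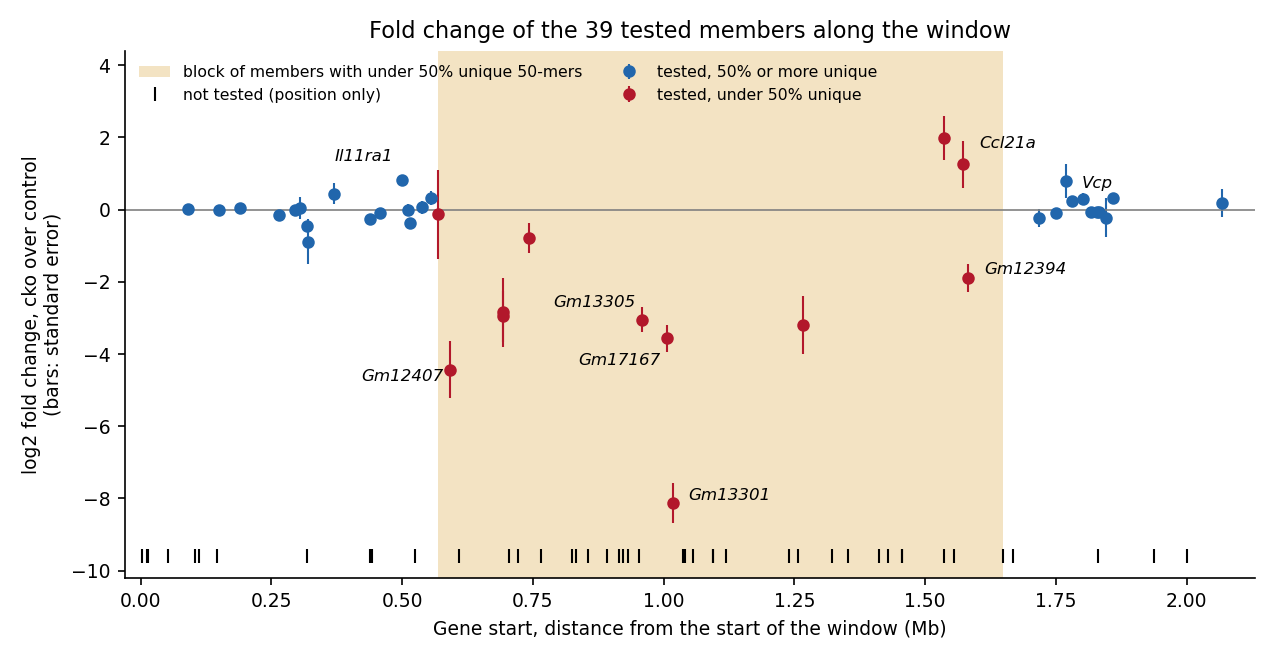
The x axis gives the start of each gene as distance from the start of the window in Mb, and the y axis the log2 fold change of cko over control with its standard error, for the 39 tested members. The shaded block holds the 42 repeat members. Inside it the values run from -8.13 (Gm13301) to 1.97, and outside it the 27 tested mostly unique members lie between -0.89 and 0.81.

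Gm13301 (ENSMUSG00000096862, chr4:42216908-42235604, plus strand) is annotated as a transcribed unprocessed pseudogene. It had 209 and 140 reads in control libraries 1 and 2, and 1 and 0 reads in cko libraries 1 and 2. The cko level was 353-fold lower by the ratio of summed counts, with a 95% exact interval of 63.0 to 13994 that covers counting error only. Nearly all of its reads were thus in the control libraries, and library cko 2, taken alone, had none.

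Gm17167 (ENSMUSG00000091542, chr4:42206998-42235313, plus strand), a processed transcript with no known function, overlaps Gm13301 on the same strand over 53.6% of the exonic length of Gm13301 and 26.0% of its own. It had 359 and 321 reads in control and 44 and 16 in cko, a level 11.5-fold lower (8.80 to 15.2 by counting error). Reads therefore remained in both cko libraries at Gm17167, unlike at Gm13301, and reads that lie wholly within exons of both genes are counted for neither. Without cko 1 its log2 fold change was -4.25, against -3.56 with all libraries.

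Gm13305 (ENSMUSG00000073876, chr4:42158842-42168603, minus strand) is the Il11ra copy that lies between Il11ra1 and Il11ra2. It had 126 and 91 reads in control and 12 and 14 in cko, with a log2 fold change of -3.05 (SE 0.34) and of -2.77 without cko 1. Both cko libraries were far below both control libraries. Il11ra2 (ENSMUSG00000078735, chr4:42656355-42661893, minus strand), which did not differ from Gm13305 over the aligned coding bases, had 0 reads in the 4 libraries.

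Il11ra1 (ENSMUSG00000073889, chr4:41699989-41769474, plus strand) moved the opposite way. It had 1230 and 867 reads in control and 2172 and 1543 in cko, or 16.1 and 14.4 CPM against 28.2 and 25.1 CPM, and the genotypes did not overlap. Its log2 fold change was 0.81 (SE 0.13). The call was lost when control 1, control 2 or cko 1 was left out, with fold changes from 0.73 to 0.89 over the 4 omissions. Summed over the 3 Il11ra copies, the level was 17.7 and 15.9 CPM in control and 28.3 and 25.3 CPM in cko, 1.60-fold higher. Among the counted reads, the loss at Gm13305 was thus smaller than the gain at Il11ra1. Any reads left out because they fit more than 1 copy are not in this sum.

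The family of 18 Gm copies held most of the difference. In 13 of them at least 1 read was counted. Together they held 766 and 610 reads in control and 91 and 37 in cko, or 10.1 ± 0.0771 CPM (mean ± SD, n = 2) against 0.891 ± 0.409 CPM (n = 2), 11.3-fold lower and 16.7-fold lower without cko 1. Beside Gm13301 and Gm17167, Gm12394 had 105 and 70 reads in control and 34 and 14 in cko (log2 fold change -1.90, SE 0.38, and -2.46 without cko 1), and Gm2163 had 41 and 32 against 8 and 0 (-3.20, SE 0.81). Neither passed the threshold in the fit described above, and both were called lower when cko 1 was left out of it. Family members with fewer reads lay on the same side: Gm13307 had 15 and 10 reads against 1 and 2, Gm13302 had 12 and 11 against 0 and 3, and Gm5859 had 12 and 9 against 2 and 2. Gm13307, annotated as antisense, joins the family only through Gm21980. It aligns with Gm17167 over 33.5% of its length, in the opposite orientation. Gm17081 had 3 and 14 reads in control and none in cko. Both cko libraries were below both control libraries for each of these 8 genes, as they were for 20.6% of all genes with at least 10 reads. Gm21093, Gm3893 and Gm10600 had 1, 3 and 4 reads in control 1 and none elsewhere, so their groups overlapped. The copies share sequence and are not separate observations.

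The chemokine genes proper were read at low levels, and they did not share a direction. Ccl19 (ENSMUSG00000071005) had 2 and 2 reads in control and 14 and 3 in cko. Its pseudogene copy Gm12407, at the other end of the block, had 30 and 18 against 2 and 0, a level 24.3-fold lower (6.37 to 206 by counting error) with no read left in cko 2, and the copy Gm2564 had 4 and 10 against 1 and 0. Ccl19-ps1 had 2 reads in cko 1 alone and Ccl19-ps3 had none.

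Ccl21a (ENSMUSG00000094686), the Ccl21 form of lymphoid tissue, had 21 and 17 reads in control and 21 and 66 in cko. Library cko 2 was alone above the others, so the genotypes overlapped, and the log2 fold change of 1.25 had a standard error of 0.66 (1.95 without cko 1). Ccl21b had no read, and Gm21541 had 2, 0, 1 and 2 in control 1, control 2, cko 1 and cko 2. The groups overlapped for each of these copies. Of the 4 markers of lymphatic endothelium, a source of CCL21, 3 were higher in both cko libraries, as were 22.7% of all genes tested. None of the 4 was at 0, and none was called. Their sum, 80.3 to 85.4 CPM in control and 110 to 125 CPM in cko, was mostly Prox1 (65.0 and 71.4 CPM in control, 106 and 88.8 CPM in cko), which granule neurons also express. Lyve1 had 2.27 and 1.71 CPM in control and 1.48 and 2.29 CPM in cko. The part of these cells in the Ccl21a counts was not tested.

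Ccl27a (ENSMUSG00000073888) varied most between libraries of one genotype. It had 272 and 139 reads in control, 375 in cko 1 and 28 in cko 2. Its log2 fold change was -0.13 with a standard error of 1.24, and it was -2.67 without cko 1 (then called lower) and 0.73 without cko 2. Its copy Gm20878 had 77 and 30 reads in control and 33 and 28 in cko, and the Ccl27b copy Gm13306 had 17 and 3 against 0 and 3. Ccl27b itself had no read.

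**Figure D2:**
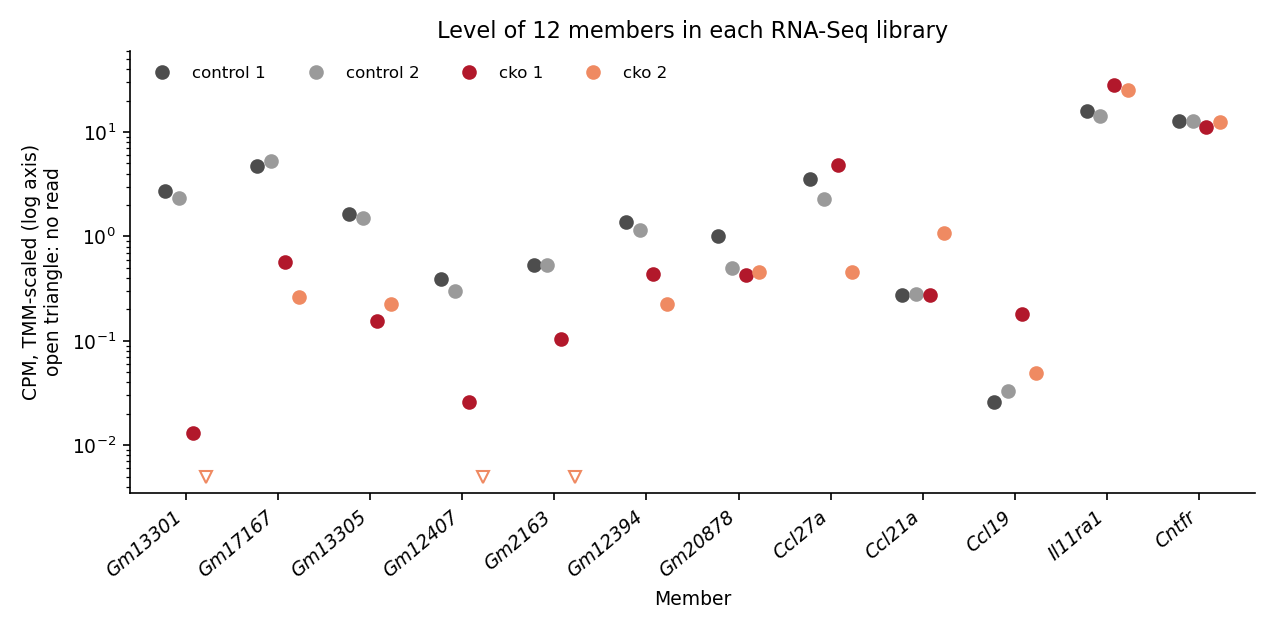
The y axis gives CPM on a log axis for 12 members, with 1 point per library (2 control, 2 cko), and open triangles at the bottom mark libraries with no read. Gm13301, Gm17167, Gm13305, Gm12407, Gm2163 and Gm12394 sit lower in both cko libraries, Il11ra1 sits higher in both, and Ccl27a has cko 1 above and cko 2 below both control libraries.

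Over all 42 repeat members the summed level was 17.3 and 15.3 CPM in control and 7.38 and 3.25 CPM in cko, a difference of -1.62 on the log2 scale or 3.07-fold. It was -0.85 without Gm13301 and Gm17167, -2.33 without Ccl27a and -2.33 without cko 1. Of the 26 repeat members with a read, 20 had a lower summed rate in the cko and 6 a higher one. Among the 18 with at least 10 reads, both cko libraries were below both control libraries in 13 and above them in 2, namely Ccl19 and 4930578G10Rik, which had 5 and 2 reads in control and 13 and 15 in cko. Over all genes with at least 10 reads these shares were 20.6% below and 22% above, and nothing is read from the comparison, since the window was chosen from this contrast.

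**Figure D3:**
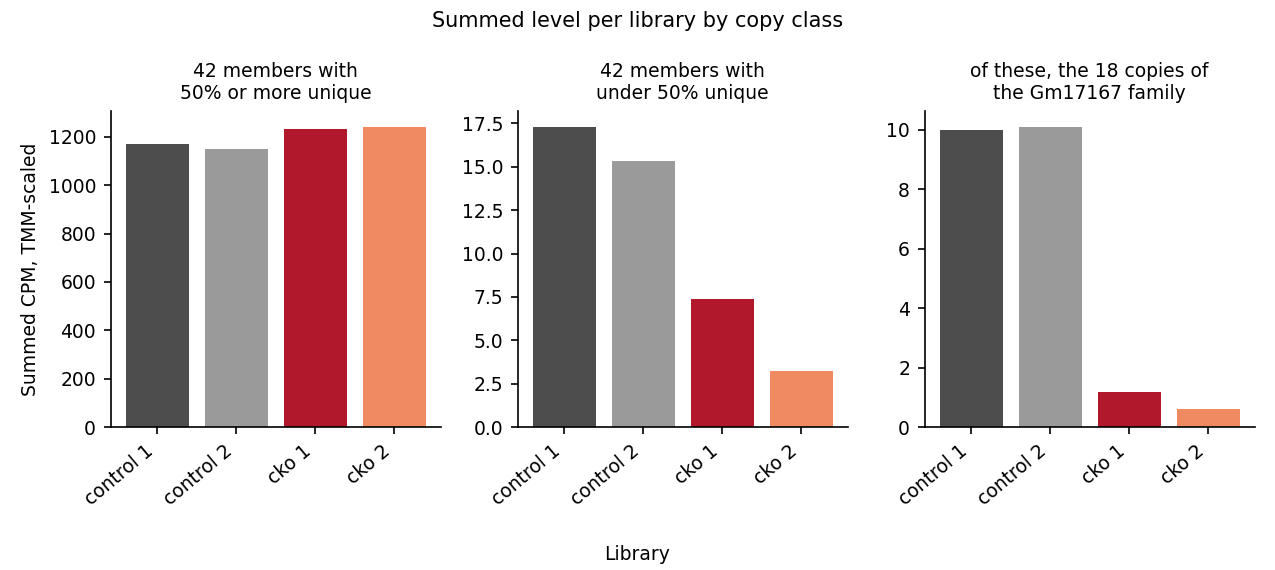
Bars give the summed CPM in each of the 4 libraries for the 42 mostly unique members, the 42 repeat members and, within the latter, the 18 copies of the Gm17167 family, each panel on its own axis from 0. The sum of the mostly unique members runs from 1149 to 1242 CPM, the repeat sum from 3.25 to 17.3 CPM and the family sum from 0.602 to 10.1 CPM.

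The mostly unique members on both sides of the block differed little in sum. Their summed level was 1170 and 1149 CPM in control and 1232 and 1242 CPM in cko, a difference of 0.09 on the log2 scale, and Vcp alone carried 499 to 618 CPM of it. Of their 27 tested genes, 1 was called, Il11ra1, and the median log2 fold change was -0.00082. The tested genes among them ran from -0.89 (Gm12404) to 0.81 (Il11ra1), and every log2 fold change beyond 1 in either direction was that of a repeat member. Most tested repeat members were also read at low levels, as was Gm12404 (0.423 CPM in control). The part of read level in this difference between the classes was not tested. The uncharacterized gene 1700022I11Rik had 0.170 and 0.116 CPM in control and 0.285 and 0.211 CPM in cko (0.78, SE 0.47).

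**Figure D4:**
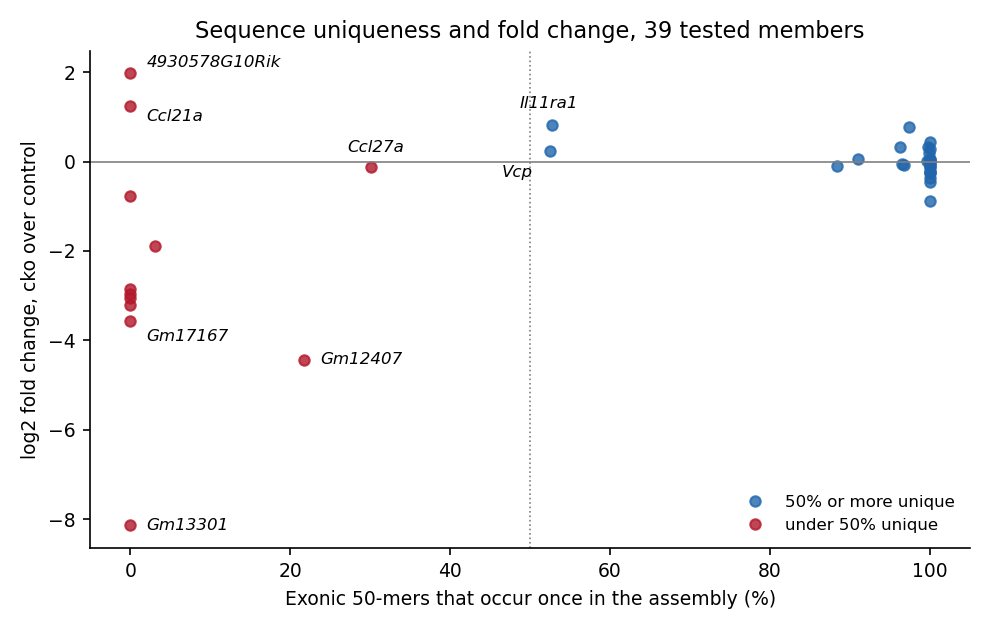
The x axis gives the percentage of exonic 50-mers that occur once in the assembly, and the y axis the log2 fold change of cko over control, for the 39 tested members. All points beyond a log2 fold change of 1 in either direction lie left of the dotted line at 50%. Most members left of the line were also read at low levels, and the part of that was not tested.

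Per kb of exonic length, the most abundant member in control GCps was Vcp, the ATPase that extracts ubiquitinated proteins, with 104 CPM per kb, followed by the dynactin subunit Dctn3 (60.2), the mitochondrial membrane scaffold Stoml2 (32.3), the ubiquitin ligase adaptor Dcaf12 (26.0), the nucleotide hydrolase Nudt2 (22.0), Enho (20.9) and Rpp25l (20.5). Fam219a (12.7), the ESCRT-I subunit Ubap1 (12.6), the cochaperone Dnajb5 (9.37) and the glycolipid anchor enzyme Pigo (7.39) came next. On the same scale Il11ra1 stood at 3.40, Ccl27a at 1.23, Gm13301 at 1.03, Gm17167 at 0.990 and Ccl21a at 0.319 CPM per kb. Il11ra1 and these repeat members thus lay far below the most abundant members.

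None of the other roles in the window held a called gene. The 5 genes of ubiquitin and protein quality control ran from a log2 fold change of -0.10 (Dnajb5) to 0.24 (Vcp, 499 and 512 CPM in control, 579 and 618 CPM in cko). The 3 tested genes of nucleic acid processing and DNA repair ran from -0.14 (Nudt2) to 0.28 (Fancg, a Fanconi anaemia protein). Among the motor and cilium genes, Dctn3 had 68.1 and 57.4 CPM in control and 49.9 and 46.9 CPM in cko (-0.38, SE 0.12), the ciliary dynein chain Dnaic1 had 0.43 (SE 0.29) and the kinesin Kif24 had 0.05. The 6 genes of endoplasmic reticulum, sugar and lipid metabolism ran from -0.25 (Enho) to 0.33 (Galt, the galactose-1-phosphate uridylyltransferase).

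The synapse and neuron genes were grouped by hand, and a place in the group is no evidence of a synaptic role. Unc13b, which primes synaptic vesicles, had 38.0 and 34.1 CPM in control and 44.2 and 45.5 CPM in cko (0.32, SE 0.11). Phf24 had -0.24 (SE 0.25). Fam219a had 50.9 and 43.9 CPM in control and 34.3 and 34.6 CPM in cko (-0.46, SE 0.11). Genes on the other strand cover 15.6% of its exons. If strand was not used in counting, reads wholly within the shared bases are counted for no gene. Cntfr, the receptor for ciliary neurotrophic factor and the neighbour of Il11ra1, had 12.7 and 12.7 CPM in control and 11.2 and 12.5 CPM in cko (-0.10, SE 0.14).

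The flanks of the window were fitted alongside it, where 1.58% of all genes were called. In the flank of equal length before it, 20 of 49 genes were tested and 0 were called, with a median log2 fold change of -0.09. In the flank after it, 41 of 73 genes were tested, 0 were called lower and 2 higher, with a median of -0.06. Over the whole of chromosome 4, 8 of 1039 tested genes were called lower and 15 higher, against 0.773% and 0.809% over all genes. Of the 8 lower calls, 3 lay in the window. Nothing is read from that, since the window was chosen from this contrast.

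Genes outside the window that act with its receptors were tested in the same fit. Of 23 genes of gp130 cytokine signaling, 19 were tested and 0 were called by edgeR's quasi-likelihood test, with 2 at an unadjusted p under 0.05 (Il6st and Socs3) and a median of 0.02. Over all genes 1.58% were called and 13.6% had an unadjusted p under 0.05, so these counts do not stand out. Il6st, the partner of Il11ra1, had 60.7 and 56.7 CPM in control and 68.0 and 69.7 CPM in cko, a log2 fold change of 0.23 (SE 0.10, adjusted p = 0.361 by edgeR). Stat3 (0.12, adjusted p = 0.750 by edgeR) and Jak1 (0.02, adjusted p = 0.966) lay closer to 0. Socs3, a feedback inhibitor of this pathway, had 43.7 and 39.1 CPM in control and 29.8 and 31.0 CPM in cko (-0.45, SE 0.11, adjusted p = 0.124 by edgeR), and it was the 1 gene of the list that DESeq2 called. The ligand Il11 had 4 and 1 reads in control and 6 and 2 in cko.

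Of 11 chemokine receptors and regulators of lymphoid chemokines, 5 were tested and 0 were called by edgeR, with 1 at an unadjusted p under 0.05 (Relb) and 0 called by DESeq2, and 5 genes are too few to set against the 13.6% over all genes. Ccr7, the receptor of CCL19 and CCL21, had 26 and 8 reads in control and 10 and 9 in cko and was not tested. Ccr10, the receptor of CCL27, had 1.25 and 0.895 CPM in control and 1.15 and 1.22 CPM in cko (0.14, adjusted p = 0.904 by edgeR). In these bulk libraries, fewer cells of a type and less RNA per cell cannot be told apart.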

How the data were processed

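The authors deposited raw counts, 1 file for each of the 4 RNA-Seq libraries, with Ensembl gene identifiers. According to the study's methods and the submitters' processing notes, reads were trimmed (Trim Galore 0.4.1), aligned to mm10 with TopHat2 2.0.14 and assigned to Ensembl 75 genes by HTSeq 0.6.1p1 (strict intersection), leaving out reads of alignment quality under 3. The paper's alignment settings are for mate pairs. Strand setting and read length are not given in the sources used here, nor is the treatment of reads with several matches beyond this quality cut. ATAC-Seq and ChIP-Seq samples were not analysed here.

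Names, exons and positions came from GENCODE vM21 (GRCm38) for 37607 of 38924 genes. Cko was compared with control with edgeR 4.0.16 in R 4.3.3 (filterByExpr, TMM, robust quasi-likelihood test, Benjamini-Hochberg threshold 0.05), checked on simulated counts. DESeq2 1.42.0 and other settings were alternatives. Standard errors (SE) were derived from each fold change and its F statistic. Exonic 50-mers and 100-mers were counted in 22 chromosome sequences and 44 contigs of GRCm38.p6, and transcripts aligned with BLAST 2.17.0. Members, lists and the choice of genes to name (the receptor and chemokine members, those called, the highest, the most changed, near-copies and role groups) were chosen with earlier results of these data known. A gene that this choice would name is not reported here. Intervals cover counting error only. The 2 libraries of a genotype were not duplicates (chi-square per degree of freedom 50.8 in control and 94.9 in cko). The cko libraries differ in sex and so come from different animals, and nothing says whether the control libraries do, so that p-values may measure technical spread in part.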

Additional observations from a re-analysis of the deposited data

How the results depend on the processing

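The alternative runs were DESeq2 size factors, no filter, DESeq2, no robust option, each library left out and the replicate block. Gm13301, Gm17167 and Gm13305 kept their direction in all of them and were called lower in each run on all libraries. The window was chosen from this contrast, so these repeated calls on the same libraries are no separate support. Without a filter and with DESeq2, 6 members were called lower (Fam219a, Gm12394 and Gm12407 being added), over all genes 727 and 890 genes were called against 260, and 1 pathway gene, Socs3, was called in each against 0. Leaving out 1 library each gave 3 to 6 lower members (6 without cko 1), 0 to 1 higher and 83 to 602 genes over all. The median log2 fold change of the tested members ran from -0.19 (without cko 1) to -0.028 (without cko 2) over these omissions, and it was -0.0081 over protein-coding members only. The cause of these shifts was not tested, beyond the smaller number of libraries. The summed level of the window differed by 0.07 to 0.09 on the log2 scale over its alternatives. The sums by copy class and their alternatives were chosen after seeing the data.

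With the replicate number as a block (replicate block), 7 members were called lower (Dctn3, Fam219a, Gm12394 and Gm12407 being added), 1 higher and 1 pathway gene (Socs3), with 1010 genes over all. The numbers mark only 2 pairs (correlation of deviations 0.268) and were not taken as a pairing. Of the members with a read, 20 did not pass the filter on low counts and carry no fold change.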
